A study of Drosophila melanogaster with 18 samples.

Results

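The cytosolic ribosomal protein genes analysed here are the rows of the FPKM table whose FlyBase symbol begins with RpL or RpS and a number, or with RpLP. The paralogs RpS10a, RpS10b, RpS5a, RpS5b, RpS19a, RpS19b, RpL22 and RpL22-like were left out. The rule gave 80 genes, 49 of the large subunit and 31 of the small subunit, among 17288 gene rows. A further 4 symbols that met it were not matched to a row and were not analysed here. RNA-seq was performed on brains of females and of males and on ovaries, all hand-dissected from young flies, with 3 libraries in each of 6 groups and 18 libraries in all. The tud mutant flies (genotype y, w with tud1, bw, sp over Df(2R)PurP133) are null for the Tud protein. The control flies carried y, w with tud1, bw, sp over CyO, P[w+, hs-hid], so they were tud heterozygotes, although the labels call them wild-type. All flies thus shared one tud1 chromosome, and the other second chromosome was a deficiency in the mutants and a balancer in the controls, so the loss of Tud and these chromosomes cannot be told apart. The study's methods call the 3 libraries of a group biological replicates. The p-values set differences between groups against the spread between libraries within groups, taken over all groups of a fit.

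Cytosolic ribosomal proteins are assembled with ribosomal RNA in the nucleolus into a large subunit, which forms the peptide bond, and a small subunit, which decodes the mRNA. Their mRNAs are among the most abundant of most cells, and their production is set jointly by growth signals such as TOR, since a ribosome needs nearly every protein in equal number. In Drosophila, loss of a single copy of many of these genes gives the Minute phenotype of slow development and thin bristles. In the ovary, nurse cells load the egg with ribosomes. Tud is a scaffold protein with Tudor domains that is needed for germ granules and germ cell formation.

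Values are FPKM, a level scaled to gene length and library size. Summed over all genes, FPKM still differed between libraries. Among brains the sum ran from 987099 in tud mutant female brain replicate 2 to 3411770 in control male brain replicate 3. Ovary sums were 742402 to 905508, so levels in different libraries may not be on a common scale. The values were compared with limma as log2(FPKM + 1), on which changes of low genes come out too small. A gene was tested where its mean reached 1 FPKM in the fit, and was called DE where its adjusted p (Benjamini-Hochberg) did not exceed 0.05. This filter left 77 of the 80 genes in brains and 76 in ovaries. The gene tud itself had 14.1 to 32.3 FPKM in tud mutant female brains and 23.9 to 31.4 FPKM in control female brains, which overlap, at 12.9 to 17.9 FPKM in tud mutant males and 20.2 to 36.2 FPKM in control males, and at 9.10 to 12.4 FPKM in tud mutant ovaries and 61.0 to 67.2 FPKM in control ovaries. The tud transcript thus separated the genotypes in male brains and ovaries and not in female brains. The modal step between low values put the depth of the ovary libraries at 0.796 to 1.09 times that of control ovary replicate 3, and the depth of the brain libraries at 0.199 to 0.57 times. Glia markers summed to 3179 to 3474 FPKM in tud mutant female brains and 2828 to 2996 FPKM in control female brains, which do not overlap. In males they summed to 3183 to 3513 FPKM in the tud mutant and 3242 to 3438 FPKM in the control, which do. Follicle cell markers summed to 12474 to 17404 FPKM in tud mutant ovaries and 14814 to 17084 FPKM in control ovaries, against 7.71 to 71.7 FPKM in the 12 brain libraries. The residual SD of log2 values had a median of 0.52 over ribosomal protein genes and 0.33 over all genes in brains, and of 0.14 and 0.11 in ovaries.

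The levels of the large subunit genes spanned a wide range in every tissue. RpL41, which encodes the smallest ribosomal protein, had the highest level per length, with a mean of 22816 FPKM over the 6 control brain libraries and 36321 FPKM over the 3 control ovary libraries. RpL29 came second in control brains with 14106 FPKM, and with 4031 FPKM had rank 8 in control ovaries, where RpL39, which lines the exit tunnel, came second with 10538 FPKM. At the other end, RpL10Aa was at or near 0 in all 18 libraries, with a highest value of 0.285 FPKM, and RpL37-2 did not exceed 1.41 FPKM. Among small subunit genes, RpS29 and RpS30, whose protein is made as a fusion with a ubiquitin-like peptide, had the highest control brain means, 6540 and 5673 FPKM. In control ovaries RpS3A came first with 5823 FPKM and RpS29 second with 5019 FPKM. The lowest small subunit genes were RpS28-like, which was listed at 0 in 13 libraries and at 0.202 to 1.53 FPKM in the other 5, and RpS28a, at 0 to 5.88 FPKM. The paralogs RpL10Ab, RpL37-1 and RpS28b were listed at 613 FPKM or more in every library.

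The remaining 76 genes each had a mean of at least 10 FPKM in control brains. Across them, the order of the levels in control ovaries followed that in control brains, with a Spearman rho of 0.83 (n = 76 genes, which are not independent replicates). Exon length had a rho of −0.285 with the control brain mean and of −0.239 with the control ovary mean over the same genes. Neighbours in these orders often overlapped: RpL29 and RpL39, next to each other in control brains, had SDs of 6538 and 9823 FPKM around means of 14106 and 13780 FPKM.

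**Figure D1:**
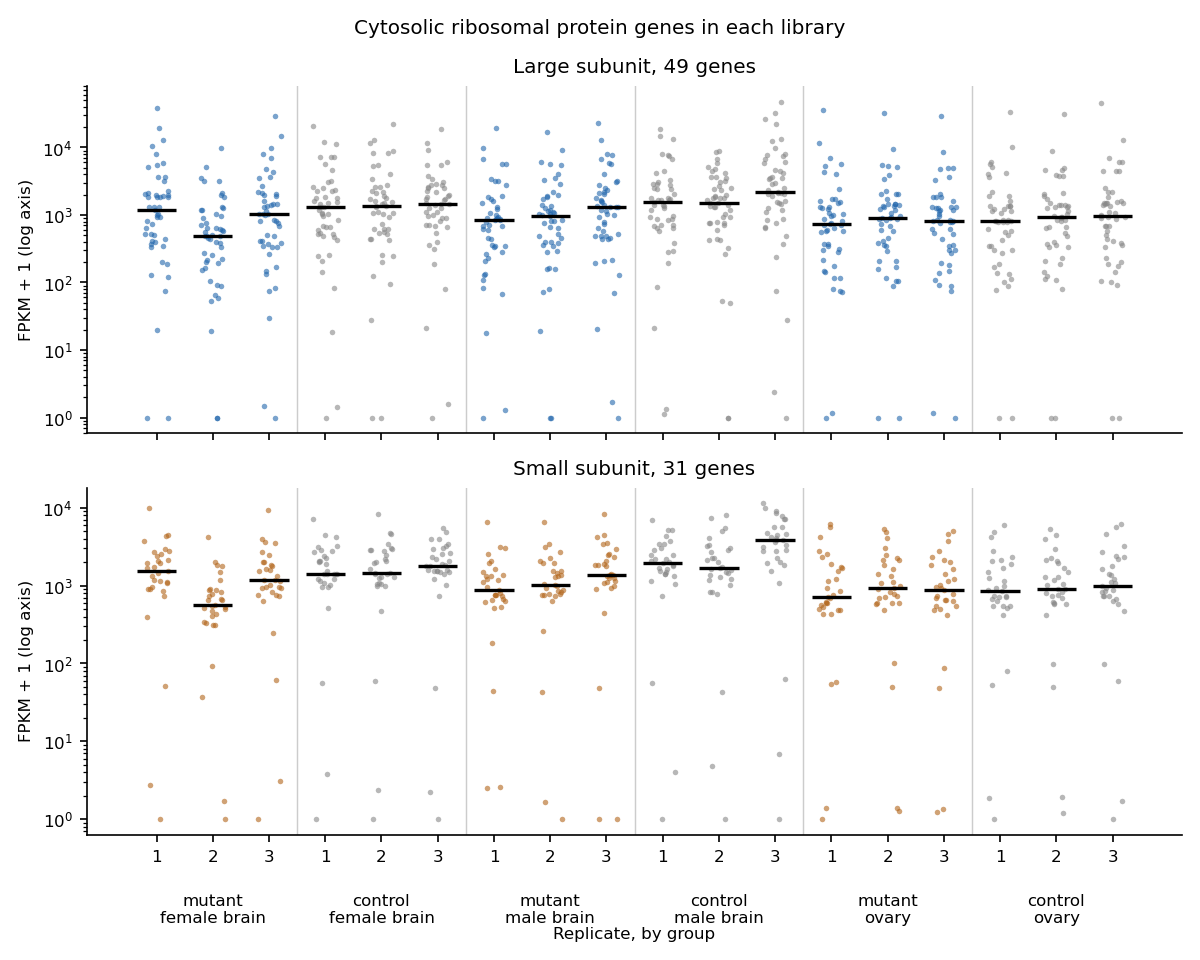
FPKM + 1 (log axis) of each of the 49 large subunit genes (top) and 31 small subunit genes (bottom) in each of the 18 libraries; points are genes, black lines are medians over genes and numbers are replicates. The medians of tud mutant female brain replicate 2 lie lowest (492 FPKM for the large and 555 FPKM for the small subunit), and those of control male brain replicate 3 lie highest (2220 and 3866 FPKM).

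The libraries of a group differed more in brains than in ovaries. In tud mutant female brains, the median level over all 80 genes was 1318 FPKM in replicate 1, 542 FPKM in replicate 2 and 1037 FPKM in replicate 3, against 1406 to 1638 FPKM in control female brains. All 76 expressed genes lay below their group mean in tud mutant female brain replicate 2, with a median deviation of −0.79 on the log2 scale. In male brains the median level was 835 to 1346 FPKM in the tud mutant and 1651 to 2924 FPKM in the control. In control male brain replicate 3, 68 of the 76 genes lay above the group mean, with a median deviation of 0.48. Replicate 2 of the same group had another profile, with 38 genes below both other control male libraries, 11 genes above both and 27 between them. RpL38 was at 439 FPKM there, against 6841 and 12368 FPKM in the other 2 control males, whereas RpL12 was at 3532 FPKM, against 1255 and 1528 FPKM. In the ovary the medians were 726 to 920 FPKM in the tud mutant and 814 to 969 FPKM in the control.

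The share of all FPKM held by the 80 genes was lower in tud mutant brains than in control brains of the same sex. It was 7.58 to 8.54% in tud mutant female brains and 9.48 to 11.6% in control female brains. In males it was 8.48 to 10.2% in tud mutant male brains and 11.1 to 17.5% in control male brains. The 17.5% was that of control male brain replicate 2, whose FPKM summed to 1025340, against 1890480 and 3411770 in the other control males. In ovaries the share was 17.5 to 17.7% in the tud mutant and 17.9 to 19.3% in the control. The ranges did not overlap in any of these 3 pairs. As a share of the FPKM of protein-coding genes alone, the 80 genes held 15.8 to 30.6% in tud mutant female brains and 28.8 to 31.2% in control female brains, which overlap. That share was 22.6 to 28.4% in tud mutant males and 28.5 to 42.3% in control males, which do not, and in ovaries it was at most 27.4% in the tud mutant and at least 26.9% in the control, so that these overlap. The summed level of the small subunit was 0.403 to 0.498 times that of the large subunit in tud mutant female brains and 0.479 to 0.554 times in control female brains, which overlap. In bulk tissue, fewer cells of a type and less RNA per cell cannot be told apart.

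The first comparison asks how tud mutant brains differ from control brains over both sexes. Genes of both subunits were lower in tud mutant brains, and none was DE in the upward direction. Of 47 large subunit genes tested, 21 fell, and the median log2 fold change was −0.79. Of 30 small subunit genes tested, 14 fell, and the median was −0.81. Together 35 of 77 genes fell and 73 had a negative change, beside a background of 10.8% of all 10689 genes tested that fell and 14.2% that rose, with a median of 0.07 over all of them. In 24 large and 14 small subunit genes, every tud mutant library lay below every control library in females and likewise in males, where 9.01% of all genes tested did. The number of DE genes rested on single libraries. It was 2 without tud mutant male brain replicate 1, 4 without control female brain replicate 3, 11 without tud mutant male brain replicate 2, 15 without control female brain replicate 2, 20 without control male brain replicate 3 and 21 without tud mutant female brain replicate 2, while the median over the 77 genes stayed between −0.93 and −0.58 in the 12 fits that each left out 1 library. After quantile normalization, which moved the median of all genes by over 0.1 to −0.04 and turned the split of all DE genes into 1166 higher and 1477 lower, against 1516 and 1150 as deposited, 29 of the 77 fell, none rose and their median was −0.53.

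The large subunit gene with the largest fall was RpL29. It had 5799, 1849 and 4400.4 FPKM in tud mutant female brains and 11081, 11741 and 11534 FPKM in control female brains. In males the values were 3452, 4099 and 5902 FPKM in the tud mutant and 14839.7, 8617 and 26821 FPKM in the control. No library of one genotype reached the range of the other in either sex, and the log2 fold change was −1.72 (adjusted p = 0.0205, SE 0.41), with the gene still DE in 9 of the 12 fits that each left out 1 library and not without the filter on low values. RpL8, which lies at the peptidyl transferase centre, followed with −1.67 (adjusted p = 0.0182, SE 0.38). RpL8 had 369.7, 105 and 266 FPKM in tud mutant female brains and 525, 441 and 912 FPKM in control female brains, with 206, 286 and 434 FPKM in tud mutant males and 862, 759.8 and 2047 FPKM in control males. Its groups were also separate in each sex. RpL34b changed by −1.47 (adjusted p = 0.0156, SE 0.30) and was DE in all 12 fits that left out 1 library. Its paralog RpL34a changed by −1.45 (adjusted p = 0.018, SE 0.32). The control value of RpL34a in male replicate 2, 749 FPKM, stood above the 192 and 371 FPKM of the other control males.

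Other large subunit genes fell by similar amounts. RpL13 changed by −1.35, RpL26, at the mouth of the exit tunnel, by −1.32, and RpL4, which reaches into that tunnel, by −1.32. RpL10Ab, the protein of the L1 stalk that moves with the exit-site tRNA, changed by −1.24 and was no longer DE after quantile normalization. RpL32, used widely as a normalization gene for PCR in flies, fell with −1.14 (adjusted p = 0.0467, SE 0.37). It had 1968, 579 and 1473 FPKM in tud mutant female brains and 2262, 2188 and 2549 FPKM in control female brains, with 1014, 1392 and 2148 FPKM in tud mutant males and 2879.7, 2444 and 6681 FPKM in control males. The call of RpL32 held in 4 of the 12 fits that left out 1 library. RpL11, which joins the 5S rRNA particle together with RpL5, did not pass the test, with a change of −0.80 (adjusted p = 0.111, SE 0.35). RpL5 had a change of −0.37 (adjusted p = 0.425, SE 0.33). Of the stalk proteins that bind the GTPase factors of elongation, RpLP0 had −0.70 (adjusted p = 0.0592, SE 0.25), RpLP1 −0.48 and RpLP2 −1.09, none of them DE.

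Among small subunit genes the largest fall was that of RpS14b. Its FPKM was 395, 92.6 and 248 in tud mutant female brains and 509.8, 473 and 735 in control female brains. In males it was 182, 261 and 446 in the tud mutant and 726, 830.0 and 2276 in the control. The genotypes did not overlap in either sex, and the log2 fold change was −1.71 (adjusted p = 0.0205, SE 0.41). Next came RpS9, a protein that binds early in small subunit assembly, with −1.51 and an adjusted p of 0.0231. RpS30 followed, with levels of 2821, 889.8 and 1988 FPKM in tud mutant female brains and 3197, 3027 and 3942 FPKM in control female brains, with 1651, 2246 and 3388 FPKM in tud mutant males and 4319.8, 8165 and 11385 FPKM in control males. The female groups of RpS30 were separate, the male groups too, and the log2 fold change was −1.32 (adjusted p = 0.0301, SE 0.37). RpS2, at the entry site of the mRNA, changed by −1.31 (adjusted p = 0.0231, SE 0.33). RpS23, a protein of the decoding centre, changed by −1.28, and RpS18, in the head of the subunit, by −1.22. Of the 12 fits that each left out 1 library, RpL8 was DE in 10, RpS14b and RpS9 in 9, RpS2 in 8, and RpS30 and RpS18 in 5.

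RpS6, the ribosomal protein that S6 kinase phosphorylates downstream of TOR, had a change with a small error. It had 734, 476 and 729 FPKM in tud mutant female brains and 1032, 1043 and 1493 FPKM in control female brains, with 624, 785 and 999 FPKM in tud mutant males and 1407, 1753 and 1836 FPKM in control males. All tud mutant libraries lay below all controls of their sex, and the log2 fold change was −0.98 (adjusted p = 0.0165, SE 0.21), DE in 10 of the 12 fits that left out 1 library. RpS3, a protein at the mRNA entry channel, fell with −1.20 (adjusted p = 0.0257, SE 0.31). RpS28a also passed the test, with −1.02 (adjusted p = 0.0317, SE 0.29), at levels of 0 to 2.10 FPKM in tud mutant brains and 1.23 to 5.88 FPKM in control brains, which are near the filter. Its call was lost with sex as an additive covariate and with array weights.

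**Figure D2:**
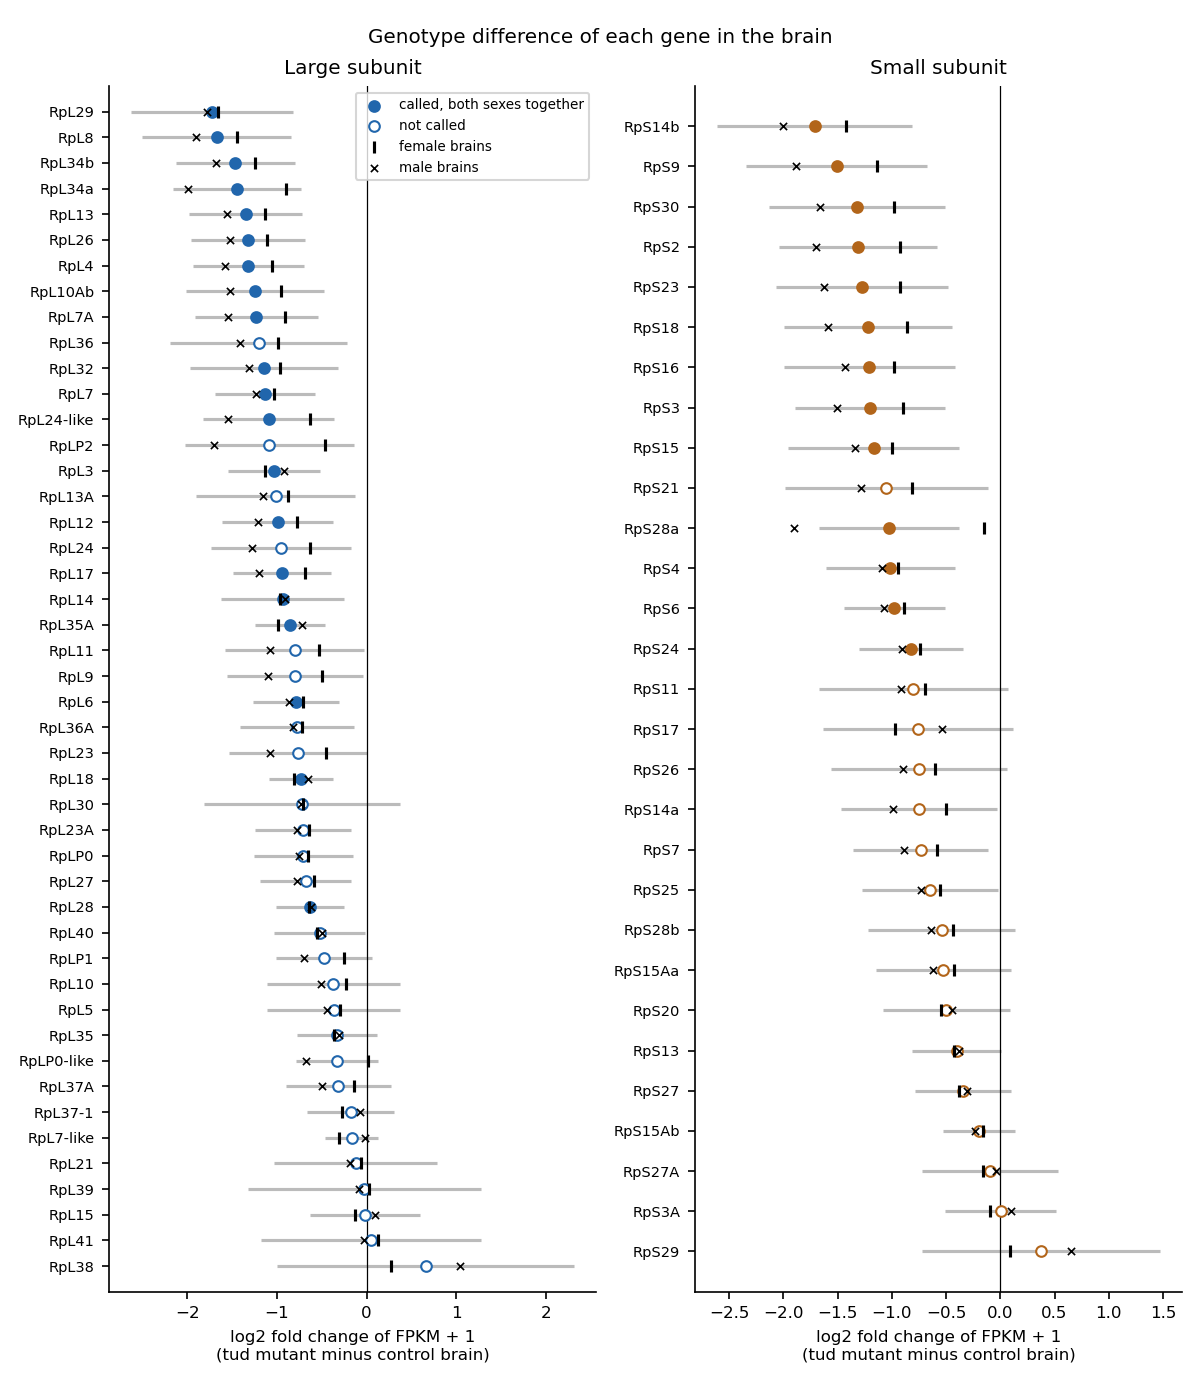
Log2 fold change of FPKM + 1 in tud mutant minus control brains for 46 of the 47 large subunit genes (left) and 29 of the 30 small subunit genes (right) tested; circles are the change over both sexes with its 95% interval (grey bars), filled where DE, ticks are females and crosses are males. Filled circles lie between −1.72 (RpL29) and −0.63 (RpL28), and only RpL38, RpL41, RpS29 and RpS3A lie at or above 0.

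A few genes had a change at or near 0 or above it. RpL38 had a positive change of 0.66 (adjusted p = 0.527, SE 0.75) and RpS29 one of 0.37 (adjusted p = 0.594, SE 0.50), neither DE. RpL38 had 12888, 3147 and 9778 FPKM in tud mutant female brains and 7132, 8284 and 3804 FPKM in control female brains, with 6712, 5992 and 8107 FPKM in tud mutant males and 6841, 439 and 12368 FPKM in control males. Both positive values rested on control male brain replicate 2, and without that library they were −0.07 for RpL38 and −0.06 for RpS29. Without it all 77 genes had a negative change, and 39 fell. RpL41 had 0.05 with a 95% interval of −1.18 to 1.28, so a fall as large as the median of its subunit is within its error. For RpS3A, a small subunit protein near the mRNA exit, the change was 0.00 with an interval of −0.51 to 0.51, and for RpL15 it was −0.01 with an interval of −0.63 to 0.60, which leave out the medians of their subunits. RpS3A had 2403, 1506 and 2679 FPKM in tud mutant female brains and 2231, 2879 and 1842 FPKM in control female brains, with 2072, 1972 and 2091 FPKM in tud mutant males and 2208, 1621 and 1931 FPKM in control males. The genotypes overlapped in both sexes.

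In the same fit, no ribosomal protein gene was DE within 1 sex. Of all genes tested, 0.337% were DE in females and 1.23% in males. The shares of all genes with a negative change within 1 sex are not given here. In females the medians were −0.64 for the large and −0.72 for the small subunit, and 72 of 77 genes had a negative change. Without tud mutant female brain replicate 2 the female medians were −0.33 and −0.23, and 61 of 77 genes had a negative change. An unadjusted p under 0.05 was found for 23.4% of the 77 genes (18) and 16.9% of all genes tested. RpL35A, with −0.98 (adjusted p = 0.142, SE 0.25), RpL18, with −0.81 (adjusted p = 0.175, SE 0.23), and RpL3, with −1.13 (adjusted p = 0.185, SE 0.33), had the smallest p, and RpS6, with −0.89 (adjusted p = 0.225, SE 0.30), had the smallest of the small subunit. In males the medians were −0.86 and −0.95, and 73 of 77 genes had a negative change. An unadjusted p under 0.05 was found for 54.5% of the 77 genes (42) and 33.2% of all genes tested. RpS28a, with −1.90 (adjusted p = 0.0551, SE 0.41), RpL34a, with an adjusted p of 0.0615, and RpL4, with −1.58 (adjusted p = 0.0663, SE 0.40), were among those near the threshold. The male count was 28 without control male brain replicate 1, 22 without tud mutant female brain replicate 2, whose spread enters the shared error, and 18 after the gene length trend of each library was removed. With array weights, which give unusual libraries less influence, 17 genes fell in females. The shares of all genes DE in these refits are not given here, so their counts are not set against 0.337% or 1.23%.

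In 44 of the 77 genes the 3 tud mutant female libraries all lay below the 3 control female libraries, where 15.3% of all genes tested did. In males this held for 51 of 77, where 15.9% did. In neither sex did any ribosomal protein gene have all tud mutant libraries above all controls. The difference between the sexes in the genotype change was tested as an interaction and no gene of the set was DE, where 0.0187% of all genes were. The smallest p was that of RpS28a, with a female minus male difference of 1.75 (adjusted p = 1, SE 0.58), followed by RpLP0-like with 0.70 (adjusted p = 1, SE 0.41) and RpL34a with 1.09 (adjusted p = 1, SE 0.65), and 1 of the 77 had an unadjusted p under 0.05, where 1.28% of all genes did. The female and male changes, which come from separate libraries, ranked the genes alike, with a Pearson r of 0.84 and a Spearman rho of 0.81 over the 76 expressed genes, given as a description since genes are not independent and share the libraries of each sex.

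Markers of some other cell types differed between the genotypes in the brain, where 14.2% of all genes tested rose and 10.8% fell. Of 12 photoreceptor markers, 8 rose and none fell. They summed to 3104 to 10694 FPKM in tud mutant female brains and 3482 to 3862 FPKM in control female brains, and to 5386 to 8123 FPKM in tud mutant male brains and 2543 to 3889 FPKM in control male brains. Of the 8 neuron markers, 3 rose and none fell, with sums of 691 to 1304 FPKM in tud mutant brains of both sexes and 368 to 684 FPKM in control brains. No neuron or photoreceptor marker was at 0 in every library of a brain group. Of the 8 glia markers, 2 rose and 2 fell. Of the 9 ovarian germline markers found, only 4 reached the filter and were tested, and these 4 rose, with a median of 0.84. The filter was applied to the same brain libraries, so these 4 do not stand for the whole list. For all 9, sums were 178 to 280.4 FPKM in tud mutant female brains and 109 to 157 FPKM in control female brains. The marker bam was at 0 in control male brains. Of the 5 haemocyte markers, NimC1 fell by 0.68 and none rose. The haemocyte sums were 87.8 to 130.5 FPKM in tud mutant female brains and 139.9 to 158 FPKM in control female brains. In males these sums overlapped, at 72.7 to 78.3 FPKM in the tud mutant and 69.5 to 127 FPKM in the control. No fat body marker tested was DE, and their sums overlapped between the genotypes, at 2458 to 11937 FPKM in tud mutant female brains and 4268 to 12368 FPKM in control female brains. The part of any of these markers in the lower levels of ribosomal protein genes was not tested.

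Other parts of the translation machinery were counted in the same brain fit, where 14.2% of all genes tested rose and 10.8% fell. Of 4 ribosome-associated proteins with other symbols, 3 fell, with Rack1, a scaffold on the small subunit, at −1.08 and sta, the ribosomal protein of the small subunit known as SA or uS2, at −1.24. Of the 70 mitochondrial ribosomal protein genes, which build the separate ribosome of mitochondria, 28 fell and none rose, with a median of −0.37. Of 34 translation factors, 15 fell and 6 rose. The largest fall was that of eIF3f1, a subunit of the initiation factor that binds the small subunit, with −1.32, and the largest rise that of eIF4H1 with 1.49. Of 27 ribosome assembly factors, among which RpL24-like, RpL7-like and RpLP0-like are also counted above, 5 fell and 1 rose, with a median of −0.23. Of 13 regulators of ribosome production and growth, 6 rose and 1 fell, led by REPTOR, a transcription factor that acts when TOR is low, with 0.95, and Trf2, a TBP-related factor that acts at ribosomal protein gene promoters in Drosophila, with 0.83. The growth regulator Myc rose by 0.67, and M1BP, a DNA-binding factor of ribosomal protein gene promoters in flies, fell by 0.52.

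The second comparison asks the same of the ovary. There 1 of 76 ribosomal protein genes was DE, the large subunit gene RpL29, beside a background of 1.55% of all 8254 genes tested that fell and 2.54% that rose. The median log2 fold change was −0.11 for the 47 large subunit genes and −0.09 for the 29 small subunit genes, with 0.00 over all genes. Of the 76 genes, 71 had a negative change, but after quantile normalization 45 did and the median was −0.03. RpS9, with −0.29 (adjusted p = 0.333, SE 0.14), and RpS26, with −0.23 (adjusted p = 0.328, SE 0.11), had the smallest p among small subunit genes. The 95% interval of RpS6 was −0.30 to 0.19 around −0.06, and that of RpL32 was −0.56 to 0.26 around −0.15. In 1 of the 76 genes, again RpL29, all tud mutant ovary libraries lay below all controls, where 11.4% of all genes tested did.

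RpL29 had 1695, 2047 and 1862 FPKM in tud mutant ovaries and 3695, 3938 and 4460.4 FPKM in control ovaries. Every tud mutant value lay below every control value, and the log2 fold change was −1.11 (adjusted p = 0.00525, SE 0.13), between −1.18 and −1.03 and DE in all 6 fits that left out 1 library. The gene lies on chromosome arm 2R at 21293768 to 21294404 (dm6, plus strand, exon length 389), 100.9 kb from tud, which lies at 21183322 to 21192913. Of the 8 genes tested in the ovary between tud and RpL29, 7 fell, with a median of −0.92. Of the 10 genes tested there in the brain, all had a negative change and 8 fell, with a median of −1.04. In the next 100 kb beyond RpL29, 8 of 27 genes tested in the ovary fell, with a median of −0.29, and in the brain 5 of 28 fell and 1 rose, with a median of 0.09. Over the whole of arm 2R the median was −0.01 in the ovary and 0.06 in the brain. The tud mutants carried a deficiency on this arm and the controls did not. Whether it spans RpL29 was not tested.

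RpL29 was also lower in the tud mutant relative to the other genes of its subunit. Its ratio to the median of the other expressed large subunit genes was 2.28, 2.21 and 2.25 in tud mutant ovaries and 4.54, 4.18 and 4.60 in control ovaries. In female brains it averaged 4.21 ± 0.49 in the tud mutant and 8.29 ± 0.43 in the control (SD, n = 3 each). Male brains had a ratio of 4.24 ± 0.19 in the tud mutant and 8.79 ± 3.19 in the control (SD, n = 3 each). The genotypes did not overlap in any tissue or sex, and the lowest control male ratio, 5.40, was that of replicate 2. RpS18, the other gene of the set within 1 Mb of tud, at 918.5 kb, had a change of −0.18 in the ovary with an adjusted p of 0.591. It had 931, 1313 and 1155 FPKM in tud mutant ovaries and 1136, 1306 and 1386 FPKM in control ovaries, which overlap.

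**Figure D3:**
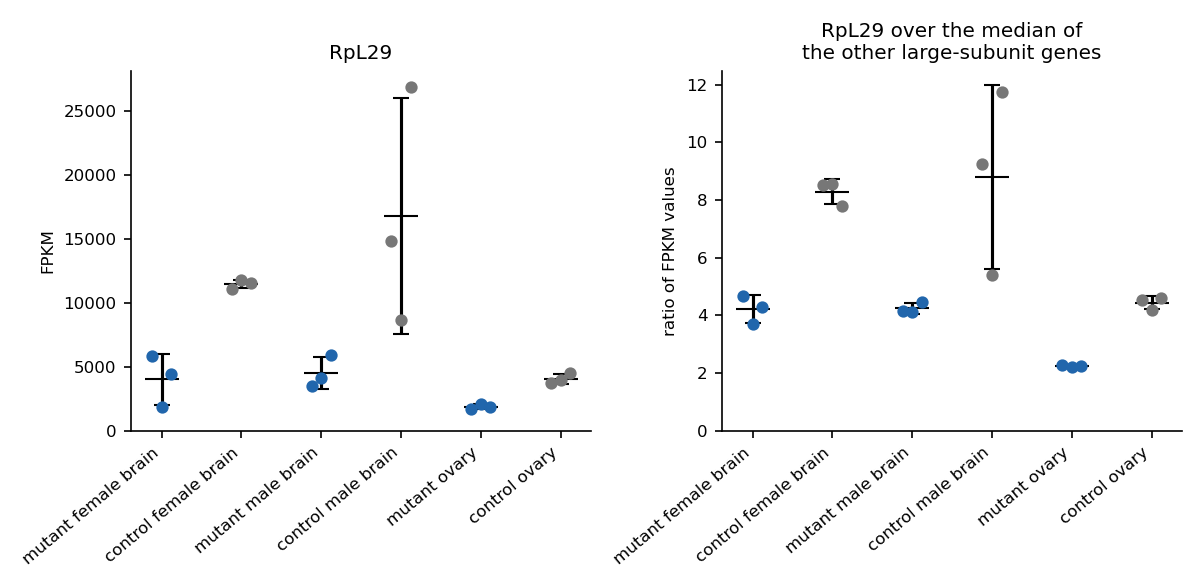
RpL29 in each library as FPKM (left) and as its ratio to the median FPKM of the other expressed large subunit genes of the same library (right); points are libraries, horizontal lines are means and error bars are 1 SD (n = 3). In ovaries the ratio is 2.21 to 2.28 in the tud mutant and 4.18 to 4.60 in the control, and in brains of both sexes the tud mutant ratios, 3.69 to 4.66, lie below all control ratios.

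The third comparison sets the control ovary against the control female brain. As deposited, 17 of 47 large and 15 of 30 small subunit genes were DE and lower in the ovary, and 2 large and 1 small subunit genes were higher. The 32 lower genes are 41.6% of the 77 and the 3 higher genes 3.9%, where 44.3% of all 10443 genes tested were lower and 35.7% were higher, so the share of lower genes was near that of all genes. The count of 35 DE genes became 59 (52 lower and 7 higher) without tud mutant female brain replicate 2, whose spread enters the shared error, and was 25 without control ovary replicate 1. The medians were −0.50 for the large subunit, −0.70 for the small subunit and −0.21 over all genes. This direction depended on the scaling. After quantile normalization the medians were 0.36 and 0.27, with 35 genes higher and 8 lower and an all-gene median of 0.15, and after removal of the gene length trend 14 were higher and 18 lower. The changes of single genes named next kept their sign and their call under both, and relative to each other the genes differed by more than 4 log2 units. The shares of all genes DE in these refits are not given here, so their counts show only how the calls depended on the processing.

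RpS14b stood lowest in the ovary relative to the brain, with 79.1, 97.7 and 96.1 FPKM in control ovaries and 509.8, 473 and 735 FPKM in control female brains and a log2 fold change of −2.62 (adjusted p = 0.000177, SE 0.43). RpL24-like, the fly counterpart of a yeast assembly factor that holds the place of RpL24 in the nascent large subunit, followed with −2.19 (adjusted p = 0.0002, SE 0.37). It had 134, 142 and 177 FPKM in control ovaries and 673, 725 and 671 FPKM in control female brains. RpL36 had −2.08 (adjusted p = 0.00078, SE 0.42), RpS30 −1.98 (adjusted p = 0.000398, SE 0.36), RpL8 −1.83 (adjusted p = 0.00174, SE 0.41) and RpS14a −1.73 (adjusted p = 0.000387, SE 0.32). The ovary and brain libraries of these genes did not overlap.

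The 3 genes that were higher in the ovary include a pair of assembly factor counterparts. RpLP0-like, the counterpart of a yeast factor that precedes RpLP0 on the pre-ribosome, was at 76.9, 79.5 and 89.8 FPKM in control ovaries and 17.6, 26.6 and 20.2 FPKM in control female brains, with 1.90 (adjusted p = 1.79e-06, SE 0.18). RpL7-like, named for its similarity to RpL7, was at 112, 125 and 141 FPKM in control ovaries and 81, 92.4 and 78.3 FPKM in control female brains, with 0.58 (adjusted p = 0.00129, SE 0.13). RpS3A, the only gene of the set on chromosome 4, was at 5923, 5338 and 6208 FPKM in control ovaries and 2231, 2879 and 1842 FPKM in control female brains, with 1.35 (adjusted p = 0.00114, SE 0.29). Of the 27 assembly factors on the wider list, 24 were higher in the ovary, where 35.7% of all genes tested were. Their median was 2.00, and RpL24-like was 1 of the 2 that were lower.

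**Figure D4:**
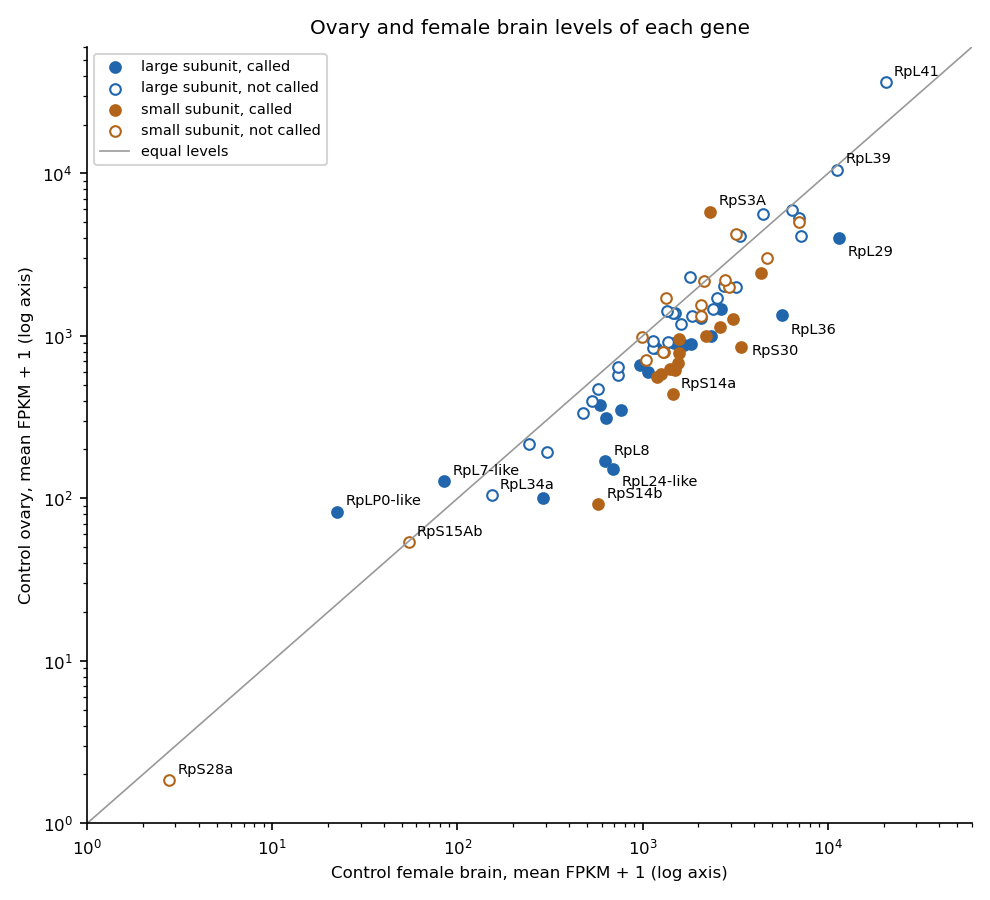
Mean FPKM + 1 in control ovaries against control female brains (both log axes, n = 3 libraries each) for the 77 genes tested in this fit; filled circles are DE and the line marks equal levels. Most genes lie below the line on the deposited scale, which turns round after quantile normalization, while RpLP0-like (log2 fold change 1.90), RpS3A (1.35) and RpL7-like (0.58) lie above it on both.

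The difference in genotype change between the ovary and the female brain was tested as an interaction. No gene of the set was DE, where 1.05% of all genes tested were. An unadjusted p under 0.05 was found for 10 of the 77, or 13.0%, and for 20.2% of all genes tested. The median of ovary minus female brain was 0.57 for the large and 0.61 for the small subunit, beside 0.02 over all genes, and it was 0.20 over both without tud mutant female brain replicate 2. RpS6 had the smallest p, with 0.83 (adjusted p = 0.175, SE 0.30), ahead of RpL35A, with 0.83 (adjusted p = 0.18, SE 0.30), and RpS4 had an adjusted p of 0.254. With array weights 19 genes rose and 1 fell in this difference. The share of all genes DE in that fit is not given here, so this count is not read as a result about these genes.

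The male brain genotype change and the difference between control ovary and control female brain rest on separate libraries. Over the 76 expressed genes they had a Pearson r of 0.65 and a Spearman rho of 0.73. The genes with the most negative genotype change in male brains thus tended to be those with the lowest ovary level relative to the brain. The brain genotype change also had a rho of 0.51 with the control ovary level and one of 0.61 with the ovary genotype change, again from separate libraries, while its rho with exon length was −0.034. These are descriptions across genes that share the libraries of each fit.

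Paralogous genes with the same number did not always keep 1 ratio. RpS14a and RpS14b are tandem copies on the X chromosome, at 7933742 to 7934677 and 7934898 to 7935792 (dm6), whose near-identical coding sequences let reads be split between them in an uncertain way. The ratio of RpS14a to RpS14b was 4.28 to 5.96 in tud mutant female brains and 2.08 to 2.98 in control female brains. For males it was 3.08 to 4.16 in the tud mutant and 1.47 to 2.08 in the control. The genotypes were separate in both sexes, since RpS14b was lower by more than RpS14a, whose brain change was −0.75 (adjusted p = 0.109, SE 0.33). In ovaries the ratio was 4.76 to 7.59 in the tud mutant and 4.30 to 5.23 in the control, which overlap.

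RpL34a and RpL34b had a ratio of 0.951 to 1.05 in tud mutant ovaries and 0.956 to 1.13 in control ovaries. In brains RpL34b was the higher of the pair in 11 of the 12 libraries, with ratios of 0.487 to 0.812 in the tud mutant, and the exception was control male brain replicate 2 with 1.74. RpL24 over RpL24-like was 3.79 to 4.09 in tud mutant ovaries and 3.85 to 4.25 in control ovaries, but 1.39 to 1.64 in tud mutant brains of both sexes and 1.38 to 1.64 in 5 control brain libraries, with 0.728 in control male brain replicate 2. RpLP0 over RpLP0-like was 9.23 to 10.5 in tud mutant ovaries and 9.75 to 10.8 in control ovaries. In female brains it was 26.1 to 48.5 in the tud mutant and 41.6 to 61.8 in the control, so the libraries overlapped. RpL7 over RpL7-like was 7.84 to 12.8 in tud mutant female brains and 14.9 to 22.1 in control female brains. For males it was 10.6 to 16.5 in the tud mutant and 19.5 to 38.1 in the control, again separate, and RpL7-like itself had a brain change of −0.17 (adjusted p = 0.363, SE 0.13) whereas RpL7 fell with −1.14 (adjusted p = 0.0177, SE 0.25). RpS15Ab was a minor partner of RpS15Aa throughout, with RpS15Aa 33.5 to 75.1 times as high over all 18 libraries.

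**Figure D5:**
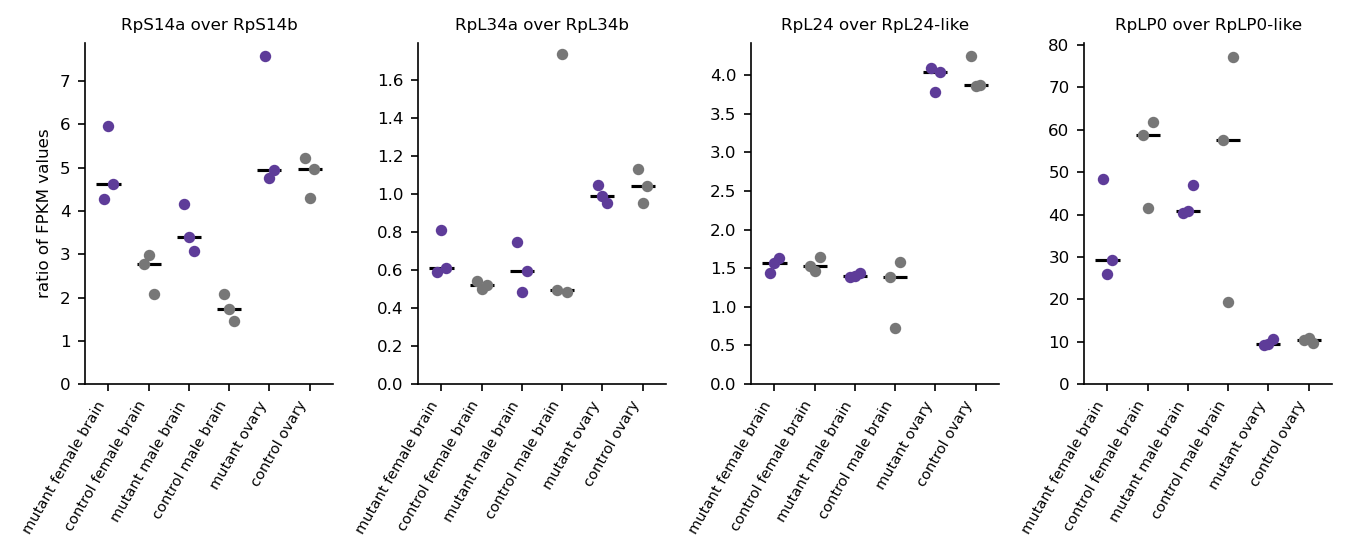
Ratio of FPKM values within a library for 4 pairs of genes (each panel's axis starts at 0), by group; points are libraries and black lines are medians (n = 3). RpS14a over RpS14b is higher in tud mutant than in control brains of each sex, and RpL24 over RpL24-like is near 4 in ovaries (3.79 to 4.25) and at most 1.64 in brains.

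The last comparison sets females against males within a genotype. No ribosomal protein gene was DE between control female and control male brains, where 0.281% of all genes tested were. An unadjusted p under 0.05 was found for 4 of the 77, or 5.19%, and for 9.98% of all genes tested. The median of female minus male was −0.36 for the large and −0.42 for the small subunit, and it was −0.19 over both without control male brain replicate 3. RpL34a had −1.33 (adjusted p = 0.435, SE 0.46), RpL24-like −1.19 (adjusted p = 0.463, SE 0.47), RpS2 −1.08 (adjusted p = 0.488, SE 0.47) and RpS28a −0.92 (adjusted p = 0.495, SE 0.41). The 10 genes on the X chromosome had a median of −0.46 in this difference, and the medians of the 4 large autosomal arms were −0.26 to −0.49, so the X-linked genes lay within the range of the others. Between tud mutant female and tud mutant male brains none was DE either, where 0.131% of all genes tested were, and none had an unadjusted p under 0.05, where 3.27% of all genes did. The smallest p of each subunit were those of RpL35A, with −0.40 (adjusted p = 1, SE 0.25), RpL18, with −0.32 (adjusted p = 1, SE 0.23), in the large subunit, and of RpS28a, with 0.83 (adjusted p = 1, SE 0.41), and RpS6, with −0.31 (adjusted p = 1, SE 0.30), in the small subunit. The median was −0.19 for both subunits together and 0.21 without tud mutant female brain replicate 2, so its direction rested on that library.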

How the data were processed

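RNA-seq was performed on total RNA after Ribo-Zero Gold depletion with a stranded TruSeq kit, and a size selection removed 5S rRNA and tRNA. The deposited FPKM values were made by the authors from reads mapped to dm6. The submitters' processing notes name CASAVA, FastQC 0.10.1, TopHat2 2.0.13, Cufflinks and Cuffnorm 2.2.1, without roles or further scaling. FPKM is normalised by the authors to length and library size, so counts and counting intervals are not used here. Symbols and dm6 positions came from Ensembl release 115.

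Values were analysed as log2(FPKM + 1) with limma 3.58.1 (trend, R 4.3.3, Python 3.11.15). The filter of mean FPKM 1 was applied in 3 fits (12 brain libraries in 4 groups, 6 ovary libraries, and 12 ovary and female brain libraries), and p-values were adjusted over all genes tested. All tests were two-sided. The fits were tested on simulated data. Alternatives tried: filters of 0 and 5 FPKM, pseudocount 0.1, median-of-ratios scaling, quantile normalization, no trend, an adjusted p of 0.01, a replicate block, removal of the gene length trend (lowess span 0.3), array weights, other codings of sex, and leaving out each library.

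The members, lists and tests were chosen with earlier results of these data known. Named genes were the 4 largest DE changes per comparison and subunit (or the 2 smallest p), the 2 highest and 2 lowest levels, genes sharing a number, genes within 1 Mb of tud, 5 widely used genes, and those opposite in sign to their subunit in the brain. Other genes named were chosen after their values were seen. Single values of some genes are not reported here.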

Additional observations from a re-analysis of the deposited data

How the results depend on the processing

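With array weights, whose estimation stopped before its tolerance was reached, the number of DE ribosomal protein genes was 54 in the brain, 17 in females, 2 in the ovary, 4 between the sexes of the tud mutant, 59 between control ovary and control female brain and 20 in the difference of the genotype change between these tissues. At an adjusted p of 0.01 it was 0 in the brain, against 35 at 0.05, and 19 between the tissues. The male count was 1 with median-of-ratios scaling, 1 with quantile normalization and 18 after removal of the length trend, and the ovary count was 2 without a filter. Leaving out 1 library gave 2 to 39 in the brain, 0 to 1 in females, 0 to 28 in males and 25 to 59 between the tissues, the last without tud mutant female brain replicate 2. The shares of all genes DE under these alternatives are not given here. A gain of calls over all genes thus cannot be told apart from one in this set. The cause of these changes in count was not tested.

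The median of control ovary minus control female brain turned positive with quantile normalization (0.35, with 0.36 for the large and 0.27 for the small subunit). The median of female minus male in the tud mutant turned positive with array weights (0.13, with 0.12 and 0.19) and without tud mutant female brain replicate 2 (0.21, with 0.19 and 0.23), and for the small subunit without tud mutant male brain replicate 3 (0.03). The median of the difference between the sexes in genotype change turned negative without control male brain replicate 3 (−0.0114 for all and the large subunit, −0.0142 for the small) and without tud mutant female brain replicate 1 (−0.00433 for all and −0.0152 for the large subunit). Leaving out 1 library gave at most 0.69 for each, without tud mutant female brain replicate 2, and the tud mutant sex medians reached −0.41, with −0.40 and −0.42, without tud mutant female brain replicate 1.

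Replicate numbers were shared by the groups, but samples with the same number did not deviate together in every pair (r of 0.04 to 0.09 in female brains, 0.05 to 0.29 in male brains and −0.11 to 0.03 in ovaries), so they were not taken as pairs. With the replicate block, 38 genes fell in the brain, 1 fell in the ovary, and 3 were higher and 29 lower in control ovary against control female brain. In female brains every sample correlated best with the sample of its own number, which did not hold in males or ovaries.

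Short transcripts depend on the size selection, and the 6 to 12 libraries of a fit with a brain residual SD of 0.52 limit what could be detected there.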

Other observations

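The brain changes were compared by position after their values were seen. Of the 77 genes tested, 7 lie within 5 Mb of the centromere end of an arm as annotated (RpL10, RpL15, RpL21, RpL30, RpL38, RpL5 and RpS26). None of the 7 was DE in tud mutant brains, and their median log2 fold change was −0.37, with values of −0.75 (RpS26) to 0.66 (RpL38). The other 69 genes on these arms had a median of −0.85, and 35 of them fell. Over all genes tested in the brain, 9.41% of 818 genes fell near the centromere ends, with a median of 0.17, and 11% of 9572 genes on the rest, with a median of 0.05, so that a count of 0 among 7 genes is not read as a result. On chromosome 4, which carries RpS3A alone among these genes, 57 of 95 genes tested rose in tud mutant brains and none fell, with a median of 1.02, beside 0.00 for RpS3A.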
